A study of Mus musculus with 18 samples.

Results

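The livers of rAAV8-treated and untreated Lipa-/- mice were compared gene by gene at 34-weeks post-injection. Lipa-/- mice lack lysosomal acid lipase and serve as a model of Wolman disease and cholesteryl ester storage disease, and the treatment was a recombinant adeno-associated virus of serotype 8 (rAAV8) that carries the human LIPA gene (hLIPA). The comparison used 6 of the 18 mice of the series, rAAV8-treated mice 9, 11 and 12 against untreated mice 4, 5 and 6. It covered every gene with over 100 reads summed over the 18 mice, which was 14533 of the 35441 genes in the count table. The 135 genes with 101 to 110 summed reads were tested, with 42 of them called different, and the 145 genes with 91 to 100 summed reads were not.

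The series holds 3 male mice in each of 6 groups, namely WT, untreated Lipa-/- and injected Lipa-/- livers of each time point (12- or 34-weeks), and the labels give 8 months as the time of the mice of 34-weeks. All mice were on the C57BL/6N background. Exon 4 of Lipa was removed from every tissue through a Cre recombinase under the CMV promoter, so the treated mice carried the same deletion as the untreated mice. The vector was injected into the tail vein of adult mice at the medium dose of the study, and its hAAT promoter is active in hepatocytes, so other liver cells were not its intended target. By the paper's account nearly all untreated Lipa-/- mice of the study reached predefined endpoints and were sacrificed before 34-weeks. Most of the 3 untreated mice sequenced here were by that account sampled earlier, so 34-weeks is the name of their group. Their age at sampling is not given mouse by mouse in the sources used here. RNA came from whole frozen liver, in which fewer cells of a type and less RNA per cell cannot be told apart.

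Lysosomal acid lipase splits cholesteryl esters and triglycerides that reach the lysosome. Without it these lipids stay in the lysosomes of hepatocytes and, above all, of macrophages, which swell into foam cells, and the liver becomes inflamed and fibrotic. Free cholesterol and fatty acids released by the enzyme leave the lysosome, hold back the SREBP2 pathway of cholesterol synthesis and feed the nuclear receptors LXR and PPARalpha. Genes of the lysosome itself are controlled in part by TFEB and its relatives, which bind E-box sites of the CLEAR type.

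The transgene was read in every treated mouse and in none of the untreated mice. hLIPA stood at 1315, 2745 and 523 CPM (reads scaled to library size, with the TMM factors of edgeR) in treated mice 9, 11 and 12, from 32368, 50262 and 13440 reads, and at 0 reads in untreated mice 4, 5 and 6. Against the limit of 3 reads per mouse that a count of 0 allows, its level was at least 14300-fold higher in the treated mice. Mouse 12 had the lowest transgene level of the 3 treated mice. The mouse Lipa gene (chr19:34469712-34522163, minus strand, GRCm39) stood at 29.1, 31.2 and 30.3 CPM in the treated mice and at 18.2, 19.7 and 18.96 CPM in the untreated mice, against 305 ± 20.1 CPM (SD, n = 3) in WT mice of 34-weeks. These reads can come from the exons that were not deleted. The treated mice were higher by 0.67 on the log2 scale (SE 0.21, edgeR adjusted p = 0.0161), which is under the 2-fold threshold used for a call, and the difference was 0.13 (edgeR adjusted p = 0.643) with counts scaled by total reads alone. In TPM, which also scales for transcript length, the groups overlapped, with 13.2, 11.2 and 12.1 TPM in the treated and 12.7, 10.4 and 10.2 TPM in the untreated mice.

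Differences between the groups were widespread. A gene was called when its log2 fold change exceeded 1 in size and its adjusted p was under 0.05 (edgeR quasi-likelihood test, Benjamini-Hochberg over all tested genes), and 4571 genes or 31.5% were called, 1867 (12.8%) higher and 2704 (18.6%) lower in treated mice. The 3 treated and 3 untreated mice did not overlap for 8128 genes (55.9%), among them 4476 of the called genes. Among the called genes the median size of the difference was 1.98 on the log2 scale. Differences beyond 5 on that scale were seen for 89 genes higher and 146 lower in treated mice. The direction depended on the level of the gene. Of the genes with a mean of 100 to 1000 CPM, 38.5% were higher and 8.29% lower in treated mice, and of those with 1 to 10 CPM, 8.77% were higher and 27.6% lower. Genes called higher took 42.0%, 44.5% and 41.0% of all reads in the treated mice, 13%, 12.9% and 16.5% in the untreated mice and between 39.0% and 45.6% in WT mice. These genes were chosen by the same comparison, so the gap between treated and untreated mice on this share follows from the choice.

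**Figure D1:**
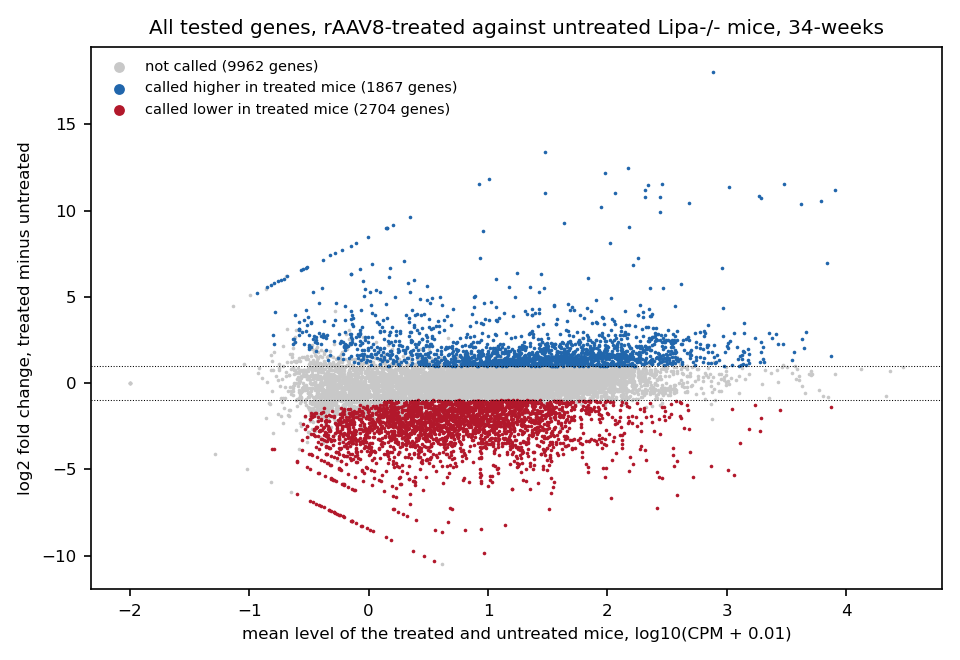
Difference between rAAV8-treated and untreated Lipa-/- livers at 34-weeks for the 14533 tested genes, as log2 fold change (y axis) against the mean level as log10(CPM + 0.01) (x axis), with genes called higher and lower coloured and straight edges from genes near 0 in a group. Of the called genes, 1867 lie above and 2704 below the axis, and those above extend to higher levels of expression.

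The balance of directions rested on the scaling. The TMM factors of the untreated mice were 1.689, 1.424 and 1.374 and those of the treated mice 1.069, 0.957 and 1.05. With total reads alone as the scale, the median over all tested genes moved on the log2 scale from 0.03 to -0.51, and of 5001 called genes 927 were higher and 4074 lower. On log2(TPM + 1) with limma the split was 727 higher and 3111 lower. Gene groups are therefore given with their median beside that of all tested genes, and with their count under total reads where it moved by over 1.5 times or from 0. Sequencing depth lay between 18178022 and 24484432 reads in the 6 mice. Treated mouse 12 stood apart from treated mice 9 and 11 in genes of neutrophils, erythroid cells, acute phase and interferon response, and results that changed without it are given with and without it.

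Lipid-associated macrophage genes fell. This program marks macrophages that take up lipid in fatty liver and in foam cells, and 14 of its 15 tested genes were lower in treated mice and none higher, with a median log2 fold change of -4.14 beside 0.03 for all genes. Summed over the 15 genes, the level was 883 to 929 CPM in treated and 7630 to 8690 CPM in untreated mice. In WT mice it was 1070 to 1170 CPM. A sum follows its most abundant members. Between treated and WT mice the median log2 fold change of the list was 1.52, with 5 genes called above WT. Plin2, a lipid droplet coat protein that hepatocytes also make, was the gene not called between treated and untreated mice. Trem2, a lipid-sensing receptor of macrophages (chr17:48653429-48661175, plus strand, GRCm39), stood at 8.45, 4.26 and 5.83 CPM in treated and at 190, 251 and 129 CPM in untreated mice, a log2 fold change of -4.94 (SE 0.52, edgeR adjusted p = 2.21e-06). Gpnmb, a membrane glycoprotein of lipid-loaded macrophages (chr6:49013426-49047863, plus strand, GRCm39), was at 120, 42.1 and 7.93 CPM against 2814, 1911 and 2012 CPM. The treated mice spread widely on Gpnmb, with mouse 9 highest, and all 3 were far below the untreated mice (log2 fold change -5.30, SE 0.75, edgeR adjusted p = 3.23e-05). Lgals3, which encodes galectin-3, was at 27.6, 19.1 and 23.2 CPM against 1019, 1086 and 929 CPM (log2 fold change -5.44, SE 0.33, edgeR adjusted p = 5.64e-08). Mmp12, the elastase of macrophages, was at 12.0, 7.97 and 6.18 CPM against 425, 224 and 244 CPM. For all 15 genes the treated and untreated mice did not overlap, as for 55.9% of all tested genes.

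General monocyte and macrophage markers were lower in treated mice for 14 of 18 tested genes, with a median of -2.34 and no gene higher. Cd68, a lysosomal glycoprotein of macrophages, was at 16.8, 11.8 and 16.7 CPM in treated and at 304, 360 and 219 CPM in untreated mice (log2 fold change -4.28, SE 0.35, edgeR adjusted p = 3.9e-07). The summed level of the list was 294 to 798 CPM in treated and 3230 to 5600 CPM in untreated mice, and the highest treated mouse was mouse 12. Ly6c2, Ccr2, Itgal and Aif1 were not called. Of 10 markers of resident Kupffer cells, Cd163, Timd4, Folr2 and Nr1h3 were higher in treated mice, 6 were not called, and the median was 0.97. With total reads as the scale the median was 0.4. Their summed level overlapped, at 319, 454 and 846 CPM in treated and 489, 384 and 217 CPM in untreated mice. Nr1h3 is also counted among the LXR genes. Timd4, a receptor for phosphatidylserine on long-lived Kupffer cells, was at 2.48, 3.55 and 7.08 CPM in treated and 0.883, 0.348 and 0 CPM in untreated mice (log2 fold change 3.37, SE 0.81, edgeR adjusted p = 0.00317). Clec4f, the lectin that defines Kupffer cells in mice, was at 58.2, 80.1 and 178 CPM against 33.8, 17.3 and 0.220 CPM and missed the threshold (log2 fold change 2.62, SE 1.06, edgeR adjusted p = 0.0588), although its groups did not overlap. Without treated mouse 12, 2 Kupffer cell genes were called higher instead of 4.

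Lysosomal genes fell as far as they were called at all, with no gene of the 3 lists called higher. Of 30 hydrolases 13 were lower (median -0.95), of 11 cathepsins 5 (median -0.52) and of 27 lysosomal membrane and V-ATPase genes 11 (median -0.77), beside 18.6% of all genes. With total reads as the scale 22 hydrolases and 20 membrane genes were lower. Ctsk, Ctss, Ctsd, Ctsb and Ctsz were the called cathepsins. Ctsd, an aspartic protease of all lysosomes (chr7:141929646-141941775, minus strand, GRCm39), was at 381, 402 and 469 CPM in treated, 2716, 3012 and 2242 CPM in untreated and 388 ± 7.33 CPM (SD, n = 3) in WT mice. Its log2 fold change was -2.67 (SE 0.27, edgeR adjusted p = 1.55e-06), and the treated mice lay at the level of WT. Ctss, a cysteine protease of antigen-presenting cells, was at 70.2, 43.8 and 62.5 CPM against 921, 1248 and 624 CPM (log2 fold change -3.98, SE 0.39, edgeR adjusted p = 1.18e-06). Ctsk, a cysteine protease known from osteoclasts and activated macrophages, was among the genes with the largest fall, with 3.05, 2.24 and 1.13 CPM against 255, 131 and 253 CPM. Lamp1, an abundant glycoprotein of the lysosomal membrane, was at 476, 580 and 580 CPM against 633, 685 and 685 CPM and was not called (log2 fold change -0.29, SE 0.19, edgeR adjusted p = 0.24). The macrophage markers given above were lower in the same mice, and their part in the lysosomal values was not tested.

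The promoters of 3 lysosomal genes that were called lower are shown, and they carry the extended E-box of the CLEAR type. Gla encodes alpha-galactosidase, and Atp6v1a, the catalytic subunit of the proton pump of the lysosome, was chosen after its values were seen. Gla was at 6.79, 5.68 and 8.01 CPM in treated and 47.9, 41.8 and 40.5 CPM in untreated mice (log2 fold change -2.66, SE 0.30, edgeR adjusted p = 4.68e-06). The 250 bases before the start of each gene are printed in the direction of the gene, from RefSeq on GRCm38.p6, with each TCACGTGA in capitals: Ctsd at chr7:142387828-142388077 (minus strand), Gla at chrX:134601006-134601255 (minus strand) and Atp6v1a at chr16:44139260-44139509 (minus strand).
Ctsd: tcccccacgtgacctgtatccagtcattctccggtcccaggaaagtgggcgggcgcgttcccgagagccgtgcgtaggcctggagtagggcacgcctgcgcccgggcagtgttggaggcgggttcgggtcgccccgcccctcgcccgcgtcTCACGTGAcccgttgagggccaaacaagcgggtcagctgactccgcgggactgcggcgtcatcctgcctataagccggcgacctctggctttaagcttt
Gla: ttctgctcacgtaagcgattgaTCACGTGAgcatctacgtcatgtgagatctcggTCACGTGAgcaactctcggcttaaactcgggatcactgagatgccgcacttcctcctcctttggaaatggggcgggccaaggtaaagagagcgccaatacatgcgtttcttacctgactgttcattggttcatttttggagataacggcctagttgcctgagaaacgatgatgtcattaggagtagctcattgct
Atp6v1a: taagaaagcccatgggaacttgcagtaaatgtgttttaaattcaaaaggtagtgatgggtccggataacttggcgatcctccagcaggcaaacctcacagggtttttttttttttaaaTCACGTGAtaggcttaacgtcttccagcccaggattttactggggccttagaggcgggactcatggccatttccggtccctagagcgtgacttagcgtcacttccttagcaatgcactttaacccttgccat
The match of Ctsd begins 99 bases before the start, those of Gla 228 and 195 bases and that of Atp6v1a 132 bases. Searched on both strands of the 300 bases around the start, TCACGTGA was in 1.01% of 27025 mouse promoters, in 4 of 21 matched promoters of the membrane and V-ATPase genes, in 1 of 8 of the cathepsins and in 1 of 24 of the hydrolases. Its core CACGTG, which lies inside TCACGTGA, was in 7.24% of all promoters, in 6 of 21, 3 of 8 and 6 of 24 of the same lists. TCACGTGA was also in the promoters of Atp6v0e, which was called lower, and of Mcoln1 and Atp6v0d1, which were not called. Of the carriers of CACGTG, Gla, Glb1, Naglu, Sgsh, Ctsd, Atp6v0e and Atp6v1a were called lower. Gaa, Arsa, Ctsf, Ctsl, Lamp1, Mcoln1, Atp6v0b and Atp6v0d1 were not called. A link between the motifs and the fall was not tested. These matches describe the letters in the window and no binding.

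Collagens and matrix genes fell, with 26 of 30 lower, none higher and a median of -3.33. Col1a1, the main chain of fibrillar collagen (chr11:94827050-94843868, plus strand, GRCm39), was at 18.4, 12.2 and 6.81 CPM in treated, 829, 326 and 443 CPM in untreated and 6.83 ± 2.81 CPM (SD, n = 3) in WT mice (log2 fold change -5.42, SE 0.67, edgeR adjusted p = 9.21e-06). Timp1, an inhibitor of matrix proteases, was at 0.650, 0.382 and 0.817 CPM against 59.98, 36.4 and 35.5 CPM (log2 fold change -6.12, SE 0.66, edgeR adjusted p = 2.9e-06). Timp2 had no read in the treated mice and 7.57, 7.34 and 6.25 CPM in the untreated mice, at least 52.6-fold lower in the treated mice. It was also low in WT mice, at 0.708, 0 and 0.350 CPM. Col14a1, Col18a1, Fn1 and Tgfbi were not called. Among markers of stellate cells, which store retinoids at rest and become myofibroblasts in fibrosis, both directions were seen. Cygb, Postn, Acta2, Pdgfra, Pdgfrb and Des were lower, and Lrat, Ngfr and Reln were higher, with 5 of the 14 not called and a median of -0.95. With total reads as the scale Lrat alone was higher, and Ngfr (edgeR adjusted p = 0.0948) and Reln (edgeR adjusted p = 0.187) lost their calls. Lrat, which makes the retinyl esters that resting stellate cells store, was at 17.1, 17.4 and 17.2 CPM in treated, 1.89, 4.21 and 1.76 CPM in untreated and 16.2 ± 2.90 CPM (SD, n = 3) in WT mice (log2 fold change 2.72, SE 0.34, edgeR adjusted p = 1.1e-05). The summed stellate level was 117 to 140 CPM in treated, 280 to 393 CPM in untreated and 117 to 135 CPM in WT mice.

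**Figure D2:**
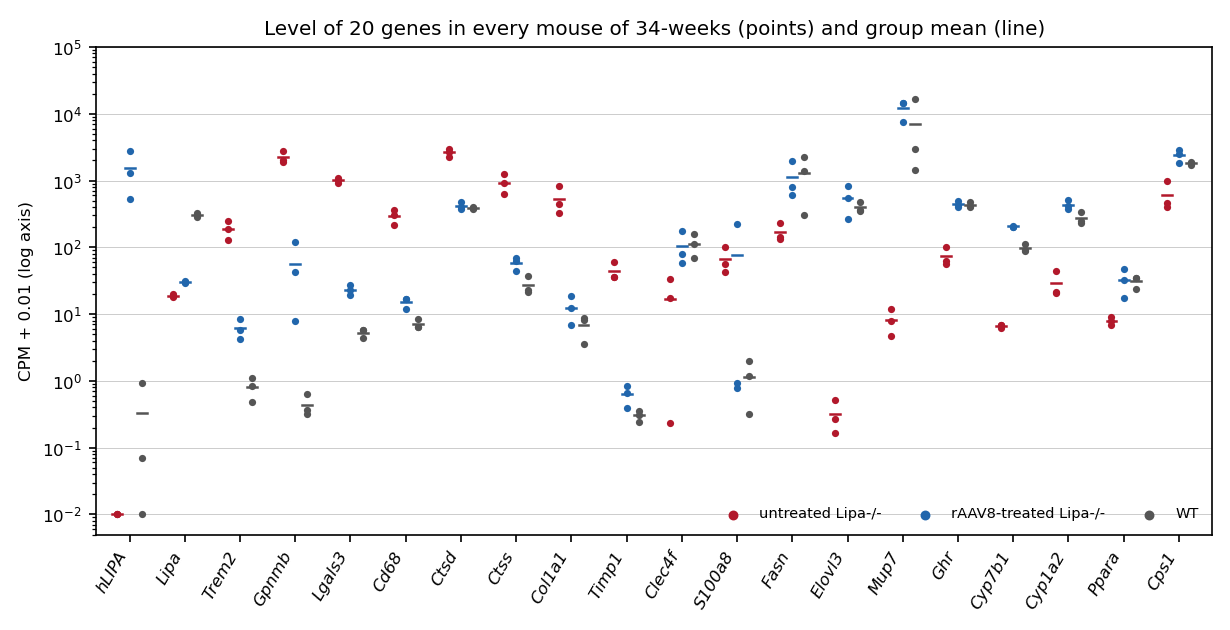
Level of 20 genes in each mouse at 34-weeks, in CPM on a log axis with 0.01 added, for WT, untreated Lipa-/- and rAAV8-treated Lipa-/- mice (3 points each, line at the group mean). Trem2 (4.26 to 8.45 against 129 to 251 CPM) and Col1a1 (6.81 to 18.4 against 326 to 829 CPM) were low in treated mice, Elovl3 (265 to 832 against 0.154 to 0.504 CPM) was high, and S100a8 overlapped through treated mouse 12 at 226 CPM.

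Markers of bile duct cells were lower for 9 of 11 genes, with a median of -2.80 and a summed level of 27.4 to 39.1 CPM in treated and 116 to 132 CPM in untreated mice. Cldn4, a tight junction protein, was at 0.122, 0.218 and 0.117 CPM against 3.47, 2.01 and 2.39 CPM (log2 fold change -4.09, SE 0.76, edgeR adjusted p = 0.000414). Cd24a and Epcam, also in this list, mark progenitor-like cells as well. Of 10 genes of foetal liver and liver tumours 8 were lower (median -3.41). Gpc3, a foetal proteoglycan of the cell surface, was at 1.83, 0.928 and 1.17 CPM against 23.8, 18.4 and 8.67 CPM (log2 fold change -3.68, SE 0.58, edgeR adjusted p = 9.61e-05). Afp, alpha-fetoprotein, was at 1.18, 0.874 and 1.83 CPM against 3.25, 3.13 and 6.21 CPM, and its call was lost without untreated mouse 6 (edgeR adjusted p = 0.0549). Cell cycle genes were lower for 9 of 24 with a median of -1.69. That count was 5 without untreated mouse 4, 3 without untreated mouse 6, 3 without treated mouse 9, 4 without treated mouse 11, 19 without treated mouse 12 and 15 with total reads as the scale. Mki67, the antigen of dividing cells, was at 1.99, 0.218 and 7.58 CPM against 24.6, 7.57 and 27.7 CPM, so treated mouse 12 reached the lowest untreated mouse.

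Sinusoidal endothelial markers were called higher for 3 (Dnase1l3, Clec4g and Wnt2) and lower for 3 (Stab1, Lyve1 and Fcgr2b) of 14, with a median of 0.21 whose sign changed under other settings. These shares, 21.4% each, were near those of all tested genes in the lower direction. With total reads as the scale 5 were lower, and Wnt2 lost its call without treated mouse 12 (edgeR adjusted p = 0.0917). Dnase1l3, a secreted DNase of these cells, was at 22.3, 29.4 and 22.6 CPM against 3.03, 2.01 and 4.74 CPM (log2 fold change 2.92, SE 0.46, edgeR adjusted p = 9.52e-05). Stab1, a scavenger receptor, was at 29.2, 24.7 and 17.8 CPM against 102, 108 and 69.6 CPM (log2 fold change -1.96, SE 0.27, edgeR adjusted p = 2.53e-05). Of 16 T and NK cell genes (median -0.32) 1 (6.25%) was higher and 2 (12.5%) lower, beside 12.8% and 18.6% of all tested genes. The higher one, the granzyme Gzma, lost its call without treated mouse 12 (edgeR adjusted p = 0.829) and with total reads as the scale (edgeR adjusted p = 0.0762). Its call was also lost without untreated mouse 4, 5 or 6. The lower genes numbered 4 without treated mouse 12, 1 without untreated mouse 5 or without treated mouse 9, and 6 with total reads as the scale. Of 9 B and plasma cell genes (median -0.45) Jchain and Cd22 were lower, 22.2% beside 18.6% of all tested genes. Ighg1, an immunoglobulin heavy chain, was at 0.447, 0.109 and 0.700 CPM against 25.7, 30.2 and 37.8 CPM (log2 fold change -6.14, SE 1.19, edgeR adjusted p = 0.000564).

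**Figure D3:**
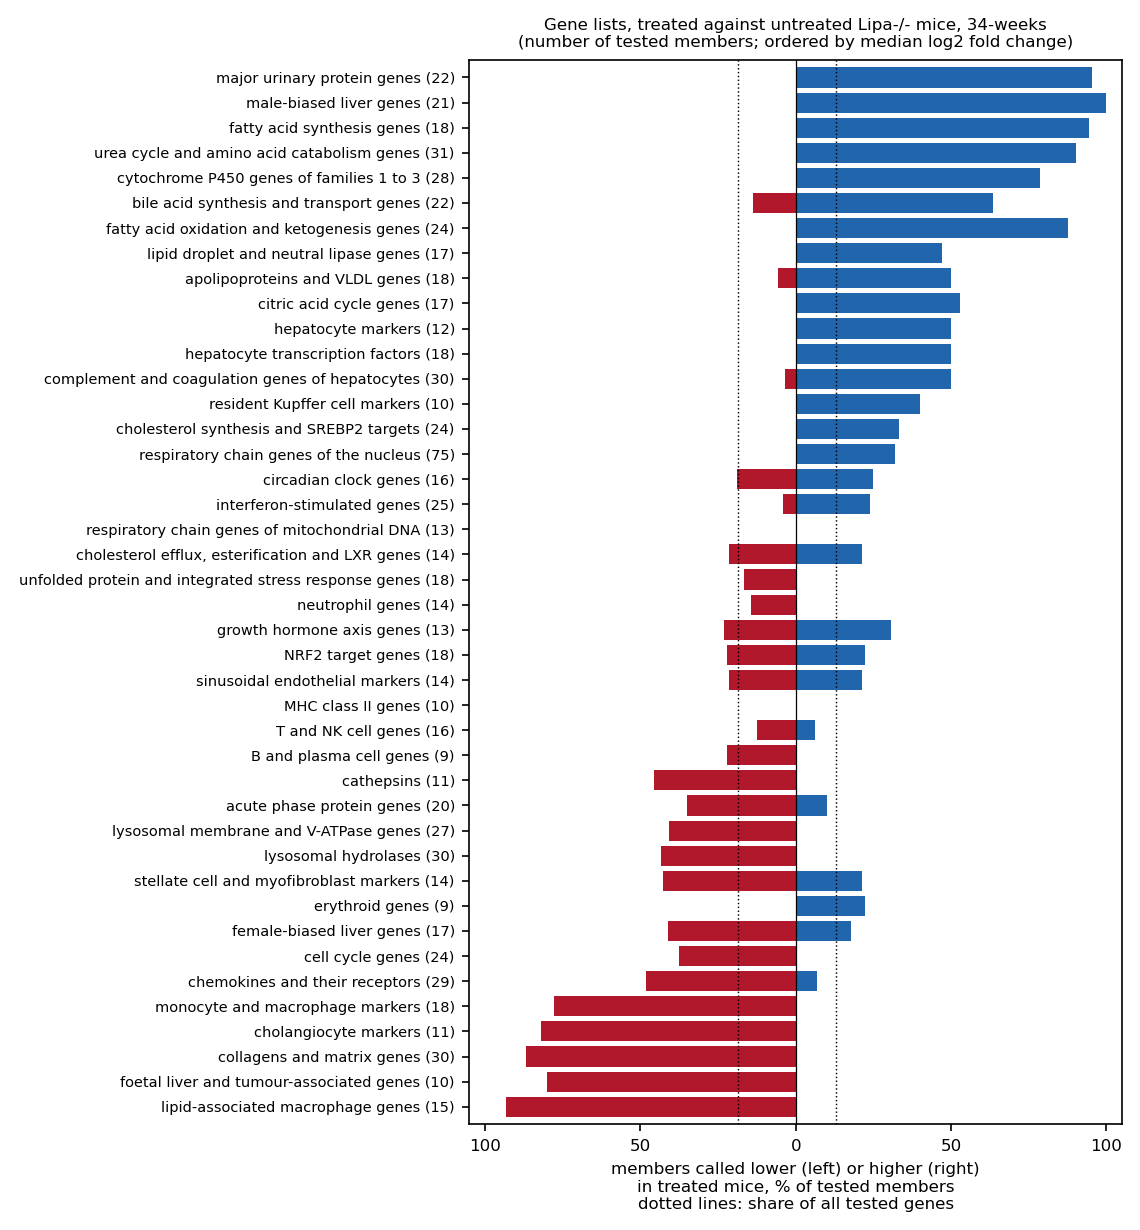
Share of the tested members of each gene list called higher and lower in rAAV8-treated against untreated Lipa-/- mice at 34-weeks, in percent, with dotted lines at the shares over all tested genes (12.8% higher, 18.6% lower). Lipid-associated macrophage genes (14 of 15 lower) and male-biased liver genes (21 of 21 higher) lie at the extremes.

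Hepatocyte markers were called higher in treated mice for 6 of 12 and lower for none (median 1.07), and with total reads as the scale 4 were higher and 1 lower. All 12 markers were read in every mouse. Alb, serum albumin, was at 39210, 50990 and 27980 CPM in treated and 15810, 12510 and 34160 CPM in untreated mice and overlapped through untreated mouse 6 (log2 fold change 0.92, SE 0.43, edgeR adjusted p = 0.0993). Without that mouse Alb was called (log2 fold change 1.47, edgeR adjusted p = 0.013). Cps1, the first enzyme of the urea cycle, was at 2909, 1839 and 2484 CPM against 465, 400 and 988 CPM (log2 fold change 1.96, SE 0.33, edgeR adjusted p = 0.000153). Of 31 genes of the urea cycle and amino acid breakdown 28 were higher, none lower, and the median was 2.17. Hal, which starts the breakdown of histidine, was at 415, 402 and 305 CPM in treated, 8.79, 12.8 and 42.8 CPM in untreated and 417 ± 124 CPM (SD, n = 3) in WT mice (log2 fold change 4.12, SE 0.48, edgeR adjusted p = 5.86e-06). Sds, Sdsl and Mat1a were not called.

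Fatty acid synthesis genes were higher for 17 of 18, with a median of 2.40, and for 12 with total reads as the scale. Fasn, the fatty acid synthase, was at 1931, 814 and 600 CPM in treated and 134, 142 and 230 CPM in untreated mice (log2 fold change 2.73, SE 0.58, edgeR adjusted p = 0.00118). Thrsp, a lipogenic regulator, was at 454, 423 and 406 CPM against 13.3, 13.4 and 37.9 CPM. Elovl3, an elongase of very long fatty acids (chr19:46119917-46124133, plus strand, GRCm39), was at 556, 832 and 265 CPM in treated, 0.504, 0.154 and 0.257 CPM in untreated and 396 ± 66.5 CPM (SD, n = 3) in WT mice, the largest difference of this list (log2 fold change 10.76, SE 0.65, edgeR adjusted p = 5.64e-08). Acaca was the gene not called. Fatty acid oxidation and ketogenesis genes were higher for 21 of 24 (median 1.48), and for 11 with total reads as the scale. Acaa1b, a thiolase of peroxisomal oxidation, was at 1102, 1710 and 638 CPM against 102, 88.1 and 234 CPM (log2 fold change 3.02, SE 0.63, edgeR adjusted p = 0.00104). Ppara, the nuclear receptor that drives this program, was at 47.9, 32.2 and 17.2 CPM against 9.05, 6.76 and 7.79 CPM (log2 fold change 2.04, SE 0.35, edgeR adjusted p = 0.000204). Cpt1a, the entry step of mitochondrial oxidation, was at 201, 187 and 137 CPM against 120, 131 and 108 CPM and was not called (log2 fold change 0.56, SE 0.40, edgeR adjusted p = 0.287).

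Cholesterol synthesis genes, the targets of SREBP2, were higher for 8 of 24 and lower for none, with a median of 0.95. With total reads as the scale 5 were higher and the median was 0.44. Tm7sf2, a sterol reductase, was at 143, 173 and 270 CPM in treated and 36.0, 57.1 and 44.1 CPM in untreated mice (log2 fold change 2.10, SE 0.30, edgeR adjusted p = 4.03e-05). Among 14 genes of cholesterol efflux, esterification and LXR, Lcat, Apoc1 and Nr1h3 were higher and Soat1, Abcg1 and Mylip were lower. Each direction held 21.4%, beside 12.8% higher and 18.6% lower of all tested genes. The median of this list was 0.54. Without untreated mouse 4 or without treated mouse 12, 1 was higher, and with total reads as the scale none was higher. Soat1, the acyltransferase that makes cholesteryl esters in macrophages, was at 7.48, 4.15 and 5.76 CPM against 73.8, 65.6 and 49.3 CPM (log2 fold change -3.44, SE 0.31, edgeR adjusted p = 7.18e-07). Abcg1, a sterol exporter of macrophages, was at 6.70, 5.62 and 6.69 CPM against 52.4, 38.4 and 44.1 CPM (log2 fold change -2.82, SE 0.23, edgeR adjusted p = 3.42e-07). Nr1h3 is LXRalpha itself and lost its call without untreated mouse 4 (edgeR adjusted p = 0.0553).

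Lipid droplet and neutral lipase genes were higher for 8 of 17 (median 1.12) and apolipoprotein and VLDL genes for 9 of 18 (median 1.10), with Lpl the only one lower. With total reads as the scale 6 lipid droplet genes were higher and 3 lower, and 5 apolipoprotein and VLDL genes were higher. Ces3a, a carboxylesterase of the endoplasmic reticulum, was at 1637, 2024 and 1657 CPM against 72.4, 120 and 66.3 CPM (log2 fold change 4.36, SE 0.36, edgeR adjusted p = 3.9e-07). Ces3a and Ces3b are near-identical copies, so the division of reads between them is uncertain. Pnpla2, the main lipase of lipid droplets, was at 48.5, 50.7 and 42.0 CPM against 70.5, 81.1 and 48.9 CPM and was not called (log2 fold change -0.51, SE 0.35, edgeR adjusted p = 0.266). Lpl, lipoprotein lipase, which is also a lipid-associated macrophage gene, was at 37.5, 28.3 and 47.7 CPM against 542, 765 and 701 CPM (log2 fold change -4.14, SE 0.29, edgeR adjusted p = 1.1e-07). Lipc, hepatic lipase, was at 134, 179 and 135 CPM against 12.6, 15.7 and 11.6 CPM (log2 fold change 3.49, SE 0.32, edgeR adjusted p = 7.8e-07). The 2 lipases of the blood thus differed in opposite directions without overlap between the groups.

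Bile acid genes were higher for 14 and lower for 3 of 22, with a median of 1.83. Cyp7b1, the hydroxylase of the alternative pathway, was at 205, 205 and 208 CPM in treated and 6.87, 6.80 and 6.17 CPM in untreated mice (log2 fold change 4.96, SE 0.33, edgeR adjusted p = 6.96e-08). Cyp8b1, which directs synthesis to cholic acid, was at 335, 432 and 316 CPM against 25.9, 7.92 and 13.3 CPM (log2 fold change 4.52, SE 0.43, edgeR adjusted p = 9.89e-07). Cyp7a1, the rate-limiting enzyme of the classical pathway, was at 42.1, 50.4 and 131 CPM against 33.6, 4.21 and 43.6 CPM and overlapped (log2 fold change 1.46, SE 0.69, edgeR adjusted p = 0.105). The genes that were lower, Abcc4, Slc51b and Slco1a4, encode transporters. Of 28 cytochrome P450 genes of families 1 to 3, 22 were higher and none lower (median 2.01). Cyp1a2, a drug-metabolizing enzyme of hepatocytes near the central vein, was at 518, 415 and 373 CPM against 21.8, 20.8 and 44.2 CPM (log2 fold change 3.91, SE 0.35, edgeR adjusted p = 6.68e-07), and Cyp2f2, an enzyme of hepatocytes near the portal vein, was at 876, 913 and 669 CPM against 2.81, 3.82 and 39.5 CPM.

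By list median the largest differences lay in male-biased and major urinary protein genes. All 21 tested male-biased genes were higher in treated mice, beside 12.8% of all genes, none overlapped between the groups, beside 55.9% of all genes that did not, and the median log2 fold change was 5.54. Sex-biased genes of the mouse liver follow the pulses of growth hormone through its receptor and STAT5b. Hsd3b5, a steroid-reducing enzyme of the male liver, was at 188, 283 and 64.2 CPM in treated, 0.0946, 0.309 and 0.0367 CPM in untreated and 59.4 ± 93.0 CPM (SD, n = 3) in WT mice (log2 fold change 10.23, SE 1.51, edgeR adjusted p = 5.04e-05). The WT mice themselves spread widely on this gene. Of 22 major urinary protein (Mup) genes, which lie between chr4:59956804-62069175 (GRCm39) and encode pheromone carriers, 21 were higher and none lower (median 10.93, or 10.64 with genes at 0 at their bound). They took 6.88%, 8.09% and 6.33% of all reads in treated mice and 0.0320%, 0.0196% and 0.0119% in untreated mice. Mup7 was at 14750, 14640 and 7609 CPM against 11.9, 7.88 and 4.70 CPM (log2 fold change 10.56, SE 1.36, edgeR adjusted p = 1.45e-05), and Mup8 had no read in the untreated mice and was at least 560-fold higher. The Mup genes are near-identical copies, as are Cyp4a12a and Cyp4a12b, so the values of single copies are uncertain. Female-biased genes were higher for 3 (A1bg, Cyp4a10 and Acot3) and lower for 7 of 17. Their median was -1.18, or -0.85 with genes near 0 at their bound, and -0.02 without a filter on low counts. Of this list, Cyp2b9 was not called (edgeR adjusted p = 0.146). Cyp2a4 was called lower at 0.122, 0.164 and 0.622 CPM against 10.5, 0.309 and 5.66 CPM, and its groups overlapped. Its call was lost without untreated mouse 4, treated mouse 9 or treated mouse 11. Cyp2a5, of the same subfamily, was called higher, and the division of reads between Cyp2a4 and Cyp2a5 was not tested. Sult1e1, the oestrogen sulfotransferase, is outside the female-biased list and was named for its large fall. It was at 0.691, 0 and 0.467 CPM against 47.1, 45.7 and 100 CPM (log2 fold change -7.28, SE 0.89, edgeR adjusted p = 8.43e-06).

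Of 13 growth hormone axis genes, Ghr, Bcl6, Igfals and Igf1 were higher and Cux2, Igfbp1 and Socs2 were lower. Their shares were 30.8% and 23.1%, beside 12.8% and 18.6% of all tested genes, and the median was 0.27. Without untreated mouse 4, 2 were higher, and with total reads as the scale 2 were higher and the median was -0.27. Ghr, the growth hormone receptor, was at 428, 489 and 401 CPM in treated, 57.1, 62.8 and 102 CPM in untreated and 429 ± 36.1 CPM (SD, n = 3) in WT mice (log2 fold change 2.57, SE 0.24, edgeR adjusted p = 9.39e-07). Igfals, which stabilises IGF1 in blood, was at 71.9, 99.1 and 78.2 CPM against 15.7, 20.4 and 33.2 CPM (log2 fold change 1.84, SE 0.38, edgeR adjusted p = 0.000972). Socs2, a feedback inhibitor of the receptor, was at 4.67, 8.14 and 12.2 CPM against 39.4, 49.3 and 28.0 CPM (log2 fold change -2.22, SE 0.59, edgeR adjusted p = 0.00626). Bcl6, a repressor of STAT5 targets, was at 106, 29.9 and 5.68 CPM against 9.93, 9.39 and 8.05 CPM, with treated mouse 12 below the untreated mice, and its call was lost without treated mouse 9 (log2 fold change 0.96, edgeR adjusted p = 0.278).
The promoter of Keg1, a male-biased glycine acyltransferase of kidney and liver chosen after its values were seen, is shown for its pair of STAT-type sites TTCNNNGAA, in capitals. Keg1 was at 108, 160 and 141 CPM in treated and 1.77, 1.08 and 3.01 CPM in untreated mice (log2 fold change 6.12). The 250 bases before its start are from RefSeq on GRCm38.p6, chr19:12695540-12695789, plus strand.
Keg1: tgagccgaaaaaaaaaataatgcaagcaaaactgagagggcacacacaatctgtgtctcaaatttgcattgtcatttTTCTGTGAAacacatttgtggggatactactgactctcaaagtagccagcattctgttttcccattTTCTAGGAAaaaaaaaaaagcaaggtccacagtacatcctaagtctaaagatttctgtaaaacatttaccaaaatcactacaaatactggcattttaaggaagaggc
The matches TTCTGTGAA and TTCTAGGAA begin 173 and 107 bases before the start. TTCNNNGAA was in 8.47% of all promoters, in 2 of 15 matched promoters of male-biased genes, 2 of 13 of female-biased genes and 3 of 12 of growth hormone axis genes.

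**Figure D4:**
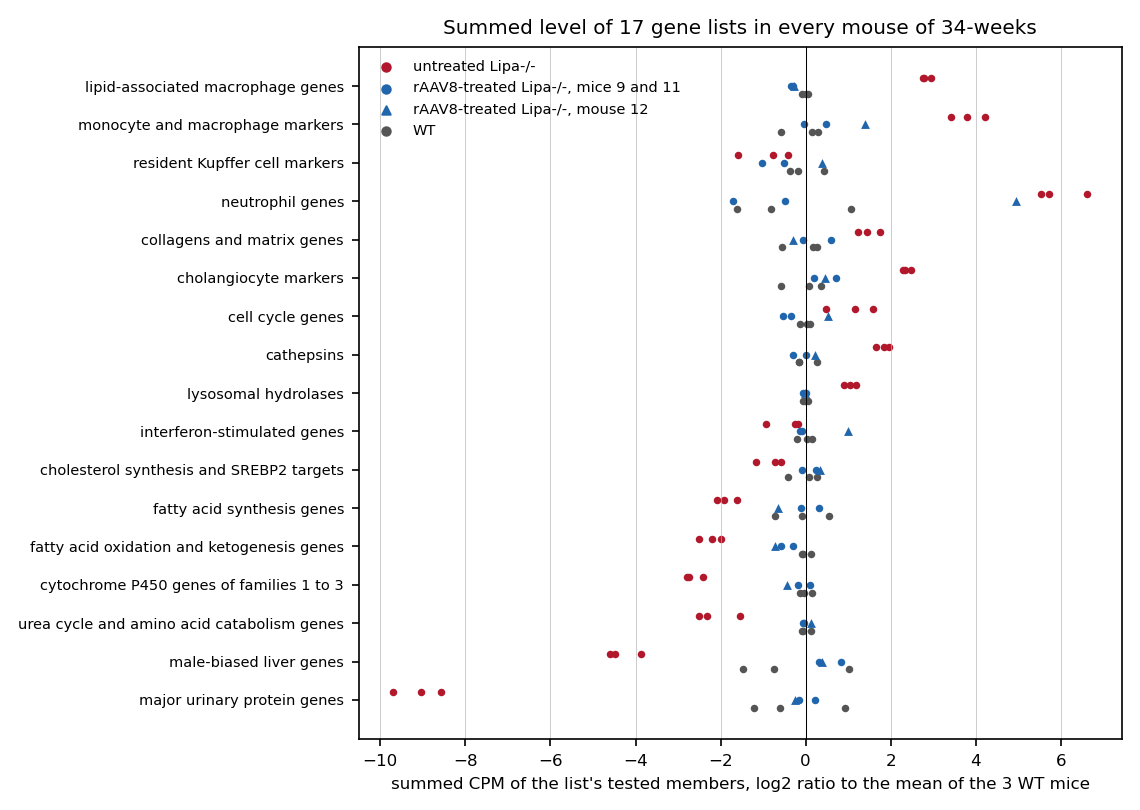
Summed level of 17 gene lists in each mouse at 34-weeks, as log2 ratio to the mean of the WT mice, for WT, untreated and rAAV8-treated Lipa-/- mice, with treated mouse 12 drawn as a triangle. Untreated mice lie far above WT for lipid-associated macrophage genes (7630 to 8690 against 1070 to 1170 CPM) and far below for Mup genes (87 to 189 against 31100 to 138000 CPM), and mouse 12 departs from mice 9 and 11 for neutrophil genes (1040 against 10.2 to 23.9 CPM).

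Hepatocyte transcription factors were higher for 9 of 18 and lower for none (median 1.00), and with total reads as the scale 1 was higher and 1 lower. Hnf4a, a master regulator of hepatocyte identity, was at 425, 436 and 310 CPM against 172, 251 and 218 CPM and stayed under the fold threshold (log2 fold change 0.87, SE 0.31, edgeR adjusted p = 0.031). Nuclear genes of the respiratory chain were higher for 24 of 75 (median 0.87), and for 1 with total reads as the scale. The count was 13 without untreated mouse 4, 42 without treated mouse 9, 14 without treated mouse 11 and 11 without treated mouse 12. Sdha, the flavoprotein of complex II, was at 503, 443 and 311 CPM against 132, 127 and 166 CPM (log2 fold change 1.56, SE 0.27, edgeR adjusted p = 0.000198). None of the 13 genes of mitochondrial DNA was called (median 0.59, with a sign that changed under other settings), and mt-Nd1, a subunit of complex I, was at 5474, 4075 and 4229 CPM against 3018, 3746 and 3744 CPM (log2 fold change 0.39, SE 0.37, edgeR adjusted p = 0.427). Citric acid cycle genes were higher for 9 of 17 (median 1.08), and for 2 with total reads as the scale.

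Neutrophil genes depended on treated mouse 12. Of 14 genes, Lcn2 and Csf3r were lower and none higher (median 0.37, or -0.19 with total reads as the scale). The lower genes were 14.3% of the list, beside 18.6% of all tested genes. Without mouse 12 the count of lower genes was 13. Their summed level was 23.9, 10.2 and 1040 CPM in treated mice 9, 11 and 12, 1550 to 3310 CPM in untreated mice and 11.0 to 70.6 CPM in WT mice. S100a8, a calcium-binding protein of neutrophils, was at 0.772, 0.928 and 226 CPM in treated and 99.7, 42.5 and 55.5 CPM in untreated mice (log2 fold change 0.21, SE 1.35, edgeR adjusted p = 0.917). Without mouse 12 its log2 fold change was -6.31 (edgeR adjusted p = 0.000941). Lcn2, the siderophore-binding lipocalin that hepatocytes also make in inflammation, was lower in all treated mice, with 16.2, 5.90 and 162 CPM against 1211, 3174 and 1585 CPM (log2 fold change -5.01, SE 1.09, edgeR adjusted p = 0.00148). Of 9 erythroid genes Alas2 and Klf1 were higher and none lower. Without mouse 12 both stayed higher and the other 7 were lower, so the split by mouse 12 held for those 7. Without untreated mouse 5, 1 was higher, and with total reads as the scale 1 was higher and 3 lower. Alas2, the erythroid enzyme of haem synthesis, was at 107, 137 and 91.3 CPM against 10.6, 19.2 and 12.5 CPM (log2 fold change 2.99, SE 0.26, edgeR adjusted p = 5.25e-07), while Hbb-bs, an adult beta globin, was at 12.6, 70.6 and 266 CPM against 205, 456 and 256 CPM.

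Chemokines and their receptors were lower for 14 and higher for 2 of 29 (median -1.78). Ccl2, which recruits monocytes, was at 1.18, 1.09 and 1.83 CPM in treated and 32.6, 14.3 and 54.0 CPM in untreated mice (log2 fold change -4.61, SE 0.84, edgeR adjusted p = 0.000353). Cxcl9, an interferon-gamma target, was higher in treated mice at 15.7, 23.1 and 14.9 CPM against 2.55, 4.67 and 5.66 CPM (log2 fold change 2.06, SE 0.43, edgeR adjusted p = 0.00114), and Cxcl13 lost its call without treated mouse 12 (edgeR adjusted p = 0.0618). Interferon-stimulated genes were higher for 6 and lower for 1 of 25 (median 0.60). None was higher without untreated mouse 4, without treated mouse 12 or with total reads as the scale, and 10 were higher without treated mouse 11. The lower genes numbered 4 without treated mouse 12 or with total reads and 0 without treated mouse 11. None of 10 MHC class II genes was called, and 1 was lower without treated mouse 12 or with total reads (median 0.17, with a sign that changed under other settings). Of 20 acute phase genes 7 were lower, 4 without untreated mouse 5, and 2 were higher, Saa4 and Crp (median -0.69). With total reads as the scale 1 was higher. Saa3, a serum amyloid A that macrophages make, was at 8.57, 14.8 and 14 CPM against 485, 262 and 207 CPM (log2 fold change -4.67, SE 0.58, edgeR adjusted p = 1.08e-05). Saa1, the form made by hepatocytes, was at 104, 81.3 and 1158 CPM against 262, 2629 and 196 CPM, with treated mouse 12 and untreated mouse 5 high, and was not called (log2 fold change -1.20, SE 1.19, edgeR adjusted p = 0.449). Complement and coagulation genes of hepatocytes were higher for 15 and lower for 1 of 30 (median 0.97), and for 8 and 2 with total reads as the scale. C6, a component of the membrane attack complex, was at 243, 241 and 188 CPM against 36.5, 35.9 and 26.4 CPM (log2 fold change 2.77, SE 0.28, edgeR adjusted p = 2.01e-06).

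Stress genes were mixed. The metallothioneins Mt1 and Mt2, which bind zinc and copper, were among the genes with the largest fall, and Mt2 was at 1.75, 2.08 and 6.57 CPM against 265, 1025 and 272 CPM (log2 fold change -7.22, SE 1.27, edgeR adjusted p = 0.000258). Among 18 NRF2 targets Gstm4, Gsta4, Gclc and Ephx1 were higher and Slc7a11, Cbr3, Hmox1 and G6pdx were lower. Each direction held 22.2% of the list, beside 12.8% higher and 18.6% lower of all tested genes. The median was 0.25, or -0.28 with total reads as the scale. The higher genes numbered 2 without untreated mouse 4, 2 without untreated mouse 5, 7 without untreated mouse 6 and 2 with total reads. Hmox1, haem oxygenase, was at 13.98, 15.02 and 23.96 CPM against 121, 111 and 74.1 CPM (log2 fold change -2.53, SE 0.27, edgeR adjusted p = 2.98e-06). Of 18 genes of the unfolded protein and integrated stress responses Atf3, Trib3 and Gdf15 were lower and none higher. The lower genes were 16.7% of the list, near the 18.6% of all tested genes. Without untreated mouse 5 or without treated mouse 12, 1 was lower. The median was 0.39, or -0.13 with total reads as the scale. Atf3, a stress-induced repressor, was at 2.60, 2.57 and 3.38 CPM against 42.8, 45.0 and 34.0 CPM (log2 fold change -3.83, SE 0.79, edgeR adjusted p = 0.000939). Of 16 clock genes (median 0.63) 4 (25%) were higher and 3 (18.8%) lower, beside 12.8% and 18.6% of all tested genes. Without untreated mouse 4 or without treated mouse 9, 2 were higher, and with total reads as the scale none was higher. Per1, a core clock repressor, was at 1.75, 1.75 and 1.71 CPM against 30.0, 30.3 and 6.94 CPM, and the hour of collection is not given in the sources used here.

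At 12-weeks the same comparison, in other mice and under other study codes, called 6027 of the same 14533 genes (41.5%). Of these, 2348 were higher and 3679 lower. The median over all tested genes was -0.19 at 12-weeks, beside 0.03 at 34-weeks. The TMM factors at 12-weeks were 0.587, 0.759 and 0.627 in treated and 1.225, 1.165 and 1.228 in untreated mice. List counts of 12-weeks were not repeated with total reads as the scale. Untreated mouse 5 of 12-weeks carries a study code of its own, and the other mice of 12-weeks share another code. Study code and time point cannot be told apart, and the code also differs within the untreated mice of 12-weeks. Lipid-associated macrophage genes were lower for 13 of 15 at 12-weeks (median -2.93) beside 14 at 34-weeks (median -4.14), collagens and matrix genes for 22 of 30 (median -2.07) beside 26 (median -3.33), and Mup genes were higher for 22 of 22 beside 21. Neutrophil genes were lower for 12 of 14 at 12-weeks, beside 2 at 34-weeks, or 13 there without treated mouse 12. Nuclear respiratory chain genes were higher for 58 of 75 at 12-weeks (median 1.43) beside 24 (median 0.87). Fatty acid synthesis genes were higher for 6 and lower for 2 at 12-weeks (median 0.49) beside 17 and 0 (median 2.40), and cholesterol synthesis genes were higher for 1 and lower for 7 (median -0.58) beside 8 and 0 (median 0.95).

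The difference between treated and untreated mice itself differed between the time points for 477 genes (3.28%), 408 toward higher and 69 toward lower values at 34-weeks (interaction term, edgeR quasi-likelihood test with Benjamini-Hochberg adjustment). Of the 408 genes, 224 were higher in treated mice at 34-weeks and lower at 12-weeks by sign, 83 were higher at both and 101 lower at both. They included 6 of the 18 fatty acid synthesis genes (Fasn, Acaca, Acacb, Elovl6, Fads2 and Srebf1) and 5 of the 24 cholesterol synthesis genes, among them Hmgcs1, Mvd, Fdps and Dhcr7. Fasn had a log2 fold change of 2.73 at 34-weeks and -0.74 at 12-weeks (interaction 3.46, edgeR adjusted p = 0.0391). Saa3 fell at 34-weeks (-4.67) and had a log2 fold change of -0.79 at 12-weeks (interaction -3.88, edgeR adjusted p = 0.0277). Col3a1, a fibrillar collagen, was at -3.90 and -0.55 (interaction -3.36, edgeR adjusted p = 0.0362), and Tff3, a secreted trefoil peptide, at -0.99 and 5.45 (interaction -6.45, edgeR adjusted p = 0.0288). Each of the 12 mice moved this count by over 1.5 times. It was 1 without 12-weeks untreated mouse 8, without 34-weeks untreated mouse 4 or without 34-weeks treated mouse 11, 2 without 34-weeks untreated mouse 5 or treated mouse 9, and 9, 79, 123 and 299 without 12-weeks untreated mouse 5, 12-weeks treated mouse 11, 12-weeks treated mouse 10 and 34-weeks untreated mouse 6. It was 1022, 1332 and 1574 without 34-weeks treated mouse 12, 12-weeks untreated mouse 9 and 12-weeks treated mouse 12. Untreated mouse 5 of 12-weeks, without which 9 genes were called, carries a study code of its own.

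**Figure D5:**
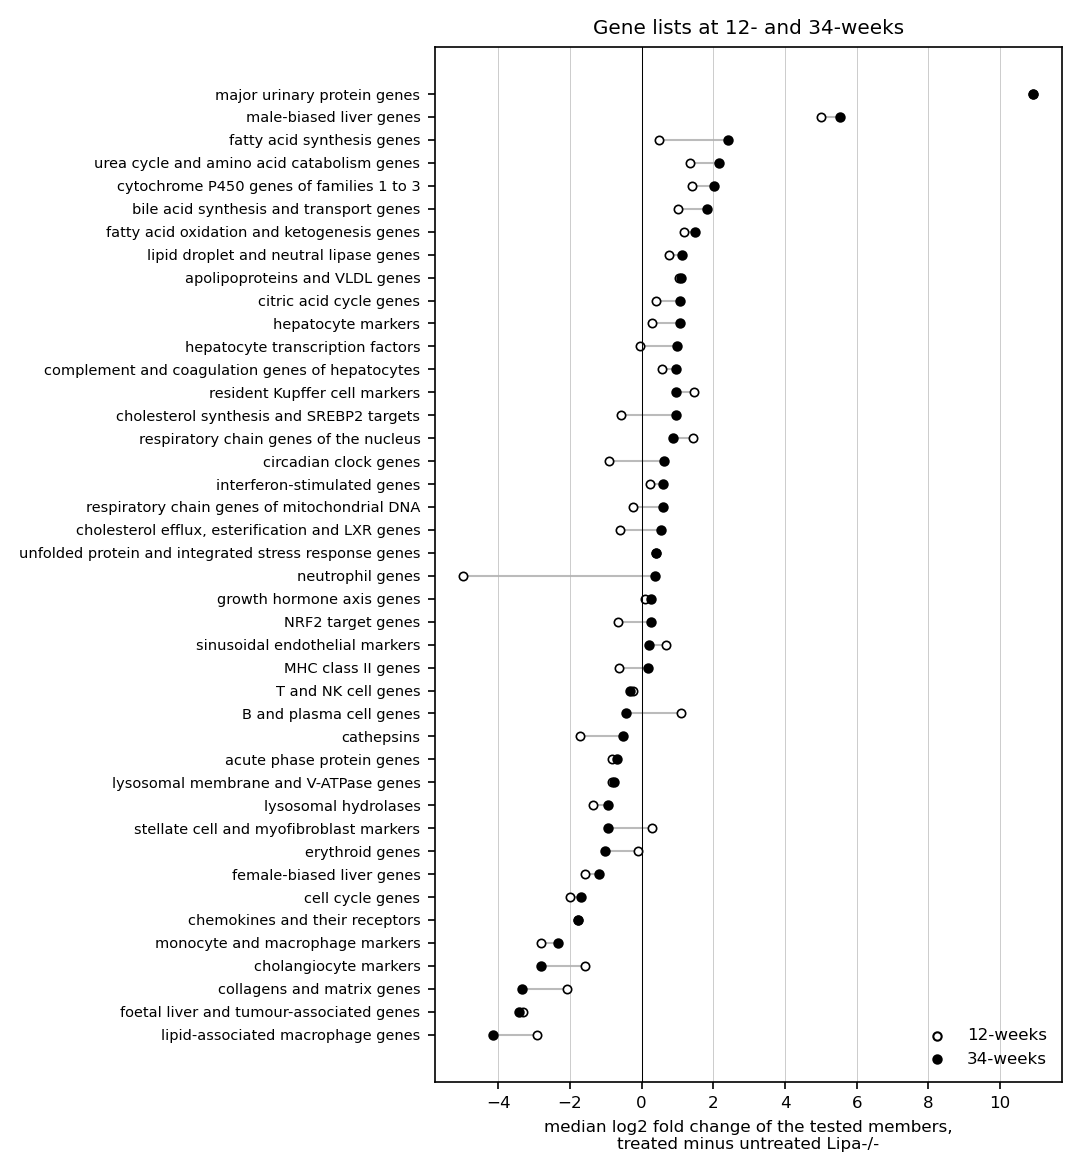
Median log2 fold change (x axis) of each gene list (rows) in rAAV8-treated against untreated Lipa-/- mice, with open points for 12-weeks and filled points for 34-weeks. Over all tested genes the median was -0.19 at 12-weeks and 0.03 at 34-weeks. The filled point lies to the right of the open point for fatty acid synthesis genes (0.49 at 12-weeks and 2.40 at 34-weeks). The same holds for cholesterol synthesis genes (-0.58 and 0.95) and, with treated mouse 12 included, for neutrophil genes (-4.97 and 0.37).

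Beside WT mice of 34-weeks, 32 genes were called in the treated mice (0.22%), 19 higher and 13 lower, with 839 genes at an unadjusted p under 0.05 in edgeR and 84 called by DESeq2. The 5 lipid-associated macrophage genes called above WT were Trem2, Gpnmb, Lgals3, Fabp5 and Mmp12. Trem2 was at 0.797 ± 0.316 CPM (SD, n = 3) in WT mice, and the treated mice were higher by 2.92 on the log2 scale (edgeR adjusted p = 0.0259). Gpnmb was at 0.432 ± 0.173 CPM (SD, n = 3) in WT mice, with a log2 difference of 7.0 (edgeR adjusted p = 0.00147) at which treated mouse 12 at 7.93 CPM was the nearest to WT. Lgals3 was at 5.28 ± 0.835 CPM (SD, n = 3) in WT mice, with a difference of 2.14 (edgeR adjusted p = 0.00298). C6, Selenbp2 and Serpina1e of the male-biased list were called above WT, with C6 at 82.2 ± 5.62 CPM (SD, n = 3) in WT mice and a difference of 1.45 (edgeR adjusted p = 0.0357). Selenbp2 and Serpina1e have close paralogs, so their values are uncertain. Of the 17 female-biased genes Cyp2b9, Hao2 and Acot3 were called between treated and WT mice, with a list median of -1.37 on the log2 scale. The summed level of that list was 83.2 to 130 CPM in treated and 135 to 209 CPM in untreated mice. In WT mice the sum was 181 to 559 CPM. Cyp2b9, a female-biased P450, was below WT at 0.203, 0.164 and 0.195 CPM against 34.6 ± 22.8 CPM (SD, n = 3; log2 difference -7.48, edgeR adjusted p = 0.0126), and the untreated mice stood at 0.378, 0 and 2.24 CPM. None of the 30 hydrolases, 11 cathepsins or 27 membrane and V-ATPase genes of the lysosome was called between treated and WT mice, with list medians of -0.01, 0.10 and -0.05 on the log2 scale.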

How the data were processed

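Polyadenylated RNA from 18 livers was sequenced and, per the labels and the study's methods, quantified by the authors with Salmon against GRCm39 Ensembl cDNA and summarised per gene with tximport (the submitters' processing notes name R 4.3.0 and DESeq2 1.40.1). The authors deposited expected counts (Salmon estimated counts, not normalized) and TPM (values scaled within each library for depth and transcript length); a table of the authors' own fold changes and p-values was not used. Mice were grouped by their labels.

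Expected counts were rounded, and genes with over 100 reads summed over the 18 mice were kept. The main test was edgeR 4.0.16 (quasi-likelihood, TMM factors, 6 group means over all 18 mice, so 3 mice per group shared one estimate of the spread; R 4.3.3), with Benjamini-Hochberg adjustment over all tested genes and a call where the log2 fold change exceeded 1 in size with an adjusted p under 0.05. DESeq2 1.42.0, limma 3.58.1 on log2(TPM + 1), other scalings and filters and leaving out each mouse were the alternatives. All p-values measure the spread between mice. The scripts were tested on simulated data. Depth was 18178022 to 24484432 reads per mouse in the 6 mice compared, and the limit for a count of 0 (3 reads per mouse) covers counting error only.

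Genes were named by a rule: hLIPA and Lipa, the 10 called genes with the largest fold change in each direction at a mean of at least 10 CPM without overlap (at most 2 per name stem, no gene models), the first member and up to 3 called members in each direction of each of 42 lists, and the 5 genes with the largest interaction in each direction. Not every gene taken by the rule is described, and a few of them are not reported here. Genes named beyond it as uncalled, as counts of a list or as members of the interaction were chosen after their values were seen. So were Atp6v1a, Keg1, Fabp5, Selenbp2, Serpina1e, Hao2, Acot3 and Cyp2a5. The comparison and the lists were chosen with earlier results of these data known. ERCC spike-ins are named in the extraction protocol and were not used here, so an absolute scale was not analysed here.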

Additional observations from a re-analysis of the deposited data

Results flagged for a closer look

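The interaction of treatment and time point was called for 477 genes, that is, the difference between treated and untreated mice differed between 12- and 34-weeks by a test of that difference (edgeR quasi-likelihood test, Benjamini-Hochberg adjustment). Study code and time point cannot be told apart, and untreated mouse 5 of 12-weeks carries a study code of its own. Every one of the 12 mice moved the count by over 1.5 times when left out, to between 1 and 1574, so the genes below are values to look at again. Among the genes named, the interaction on the log2 scale was positive (a higher log2 fold change at 34-weeks than at 12-weeks) for hepatocyte genes. It was 4.96 for Cyp4a12b and 7.36 for Cyp4a12a (near-identical copies, the latter with untreated mice at the limit of a count of 0), 3.31 for Ces3b, 1.8 for Ces3a and 2.06 for Ces1f. It was 1.9 for Asgr2, 3.46 for Fasn, 1.8 for Lipc, 3.1 for Cyp1a2, 2.53 for Cyp2c54 and 1.9 for Hnf4a. Laptm5, a lysosomal membrane gene of leukocytes, was at 2.14, Chrna4 at 4.26, Nfix at 3.95 and Zfp385a at 3.69. A positive value can also stand for a smaller fall. Laptm5 had a log2 fold change of -3.11 at 34-weeks and -5.25 at 12-weeks, and Zfp385a of -0.57 and -4.26.

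The interaction was negative (lower at 34-weeks) for Mmp12 at -2.18, Lyve1 at -2.37, Saa3 at -3.88, Col3a1 at -3.36, Fam180a at -3.14, Tes at -2.9 and Tff3 at -6.45. For Timp2 it was -8.23, a fitted value that depends on the prior count since the treated mice of 34-weeks had no read.

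Human LIPA was read 23 times in WT mouse 2 of 34-weeks and once in WT mouse 1, which received no vector per the labels, against 13440 to 50262 reads in treated mice. The separate entry for Lipa without exon 4 had 8 reads in WT mouse 3 and 4 reads in WT mouse 2 of 34-weeks and 0 reads in all 6 Lipa-/- mice compared. The cause of either signal was not tested.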

How the results depend on the processing

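The number of genes called between treated and untreated mice lay between 3733 and 5968 over all alternatives, within 1.5 times the reported 4571, and leaving out 1 mouse gave 3836 to 4617. The split moved with scaling: 40.8% of calls were higher with TMM factors, 18.5% with total reads (927 higher, 4074 lower) and 18.9% with limma on log2(TPM + 1) (727 higher, 3111 lower). Alternatives shared between 63% and 100% of the reported calls. All 163 named called genes kept their sign under every alternative, and 121 kept their call under every one. hLIPA kept its call, at 10.28 to 18.45 on the log2 scale. Over 188 named genes and all settings, 2645 values kept direction and side of the threshold, 132 fell under it, 20 passed it and 20 changed sign. Of the list counts 1284 stayed within 1.5 times and 144 did not.

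The interaction count was 1934 with DESeq2, 1784 with DESeq2 and length offsets, 272 with upper-quartile factors, 1108 with total reads, 841 without a filter, 68 with the 12 mice alone, 954 with limma on TPM and 1 at an adjusted p under 0.01. Leaving out 1 mouse gave 1 to 1574 genes in all, 1 to 1203 higher and 0 to 371 lower. The causes were not tested.

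Sign changed, on the log2 scale, for genes that were not called. With total reads S100a8 was at -0.35, mt-Nd1 at -0.13, Isg15 at -0.17 and Hspa5 at 0. With limma S100a8 was at -3.85, mt-Nd1 at -0.18, Isg15 at -0.47 and Cpt1a at 0. Abca1 was at 0.02 with edgeR length offsets and at 0 with filterByExpr. With 1 mouse left out S100a8 lay between -6.31 (without mouse 12) and 0.79, Isg15 between -0.67 (without mouse 12) and 0.7, Saa1 between -3.49 and 0.96 (without mouse 5), Cd3e between -0.42 and 0.45 and Abca1 between -0.45 and 0.17. No paired analysis was possible because the treated and untreated mice of 34-weeks share no mouse number, and equal numbers at 12- and 34-weeks carry different study codes. Genes near the limit of 3 reads per mouse allow bounds alone.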
